A study of Mus musculus with 14 samples.

Results

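Claudins are the membrane proteins that form the strands of tight junctions and set which ions and solutes pass between neighbouring cells. Each epithelium or endothelium uses its own mixture of sealing and pore-forming members, and in the lung Cldn5 is best known from the vessel wall while Cldn3, Cldn4 and Cldn7 are known from the airway and alveolar epithelium. The 8 claudin genes Cldn1 to Cldn8 were followed here through every probe set of the array whose annotation gives one of these symbols alone. They are 8 of 8251 gene symbols and have 10 of the 12422 probe sets that remained without control probe sets, Cldn1 and Cldn3 with 2 probe sets each and the other 6 genes with 1. Of the 8 genes, 6 could be tested, which took 3 arrays or more at or above a signal of 70, while Cldn1 and Cldn6 stayed below 70 on every array. Cldn1, Cldn5 and Cldn8 lie on chromosome 16, Cldn3 and Cldn4 on chromosome 5, and Cldn2, Cldn6 and Cldn7 on chromosomes X, 17 and 11 (GRCm38.p6).

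The signals come from 14 arrays: 3 pools of small lung tumors (1 mm, 3 to 4 tumors per pool), 4 middle tumors (4 to 5 mm in 1 label, 5 mm in another), 3 large tumors (10 mm or more) and 4 lungs of non-transgenic mice. All tumors arose in hemizygous SPC/myc mice, in which the surfactant protein C promoter drives c-Myc in the respiratory epithelium, and all 4 groups were of the CD2F1-(DBA/2xBalb/C) background and 9 to 13 months old. Tumors were cut out of the lung by eye and control samples were lung of non-transgenic mice, so tumor and control differ both in the transgene and in the mixture of cells, and each tumor size was set against the same 4 lungs. Myc itself had a signal of 325 to 2165 in the 10 tumor samples, against 24.1 to 35.6 in control lung.

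Between 6796 and 7575 probe sets reached 70 on 13 arrays, and 25.2% of the values of middle tumor 3 were listed at or near 0 and treated as missing, 2 claudin values among them. In the tumors 22 of 24 endothelial markers tested were lower than in control lung, 5 of 5 alveolar type I markers were lower, and 7 of 14 general epithelial markers were higher with 1 lower. Of the alveolar type II markers tested 1 of 5 was higher, and the lower ones were 2 of 5 for club cells, 1 of 3 for ciliated cells, 7 of 12 for fibroblasts, 1 of 5 for macrophages and 2 of 5 for lymphocytes. Over all probe sets 23.6% were called higher and 21.0% lower, and with so few genes the type II and macrophage counts are near those shares. The club cell, ciliated cell and lymphocyte counts are also of too few genes to be set apart from them. In whole tissue, fewer cells of a type and less RNA per cell cannot be told apart, which holds for every value below.

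The promoter windows of 3 genes are shown, those of the claudin that fell and of the pair with the clearest rises. They are shown because the tumors express c-Myc, whose canonical motif CACGTG can be searched as letters. The sequences are RefSeq's for the mouse build GRCm38.p6, 250 bases before to 50 bases after the annotated start, written 5′ to 3′ on the gene's strand, with matches to the motifs searched in capitals.
Cldn2 promoter window, chrX:139800558-139800857, + strand: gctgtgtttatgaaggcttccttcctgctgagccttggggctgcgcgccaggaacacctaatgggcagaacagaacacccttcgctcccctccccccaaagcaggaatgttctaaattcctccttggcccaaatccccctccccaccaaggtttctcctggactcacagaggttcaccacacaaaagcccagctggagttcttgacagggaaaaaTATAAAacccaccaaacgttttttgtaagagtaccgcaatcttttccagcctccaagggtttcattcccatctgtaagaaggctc
Cldn3 promoter window, chr5:134985964-134986263, + strand: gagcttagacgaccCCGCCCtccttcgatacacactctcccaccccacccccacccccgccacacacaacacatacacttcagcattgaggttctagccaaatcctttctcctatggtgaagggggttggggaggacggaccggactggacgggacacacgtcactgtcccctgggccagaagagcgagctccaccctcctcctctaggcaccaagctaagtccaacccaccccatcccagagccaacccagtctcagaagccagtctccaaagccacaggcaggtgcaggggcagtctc
Cldn5 promoter window, chr16:18776597-18776896, + strand: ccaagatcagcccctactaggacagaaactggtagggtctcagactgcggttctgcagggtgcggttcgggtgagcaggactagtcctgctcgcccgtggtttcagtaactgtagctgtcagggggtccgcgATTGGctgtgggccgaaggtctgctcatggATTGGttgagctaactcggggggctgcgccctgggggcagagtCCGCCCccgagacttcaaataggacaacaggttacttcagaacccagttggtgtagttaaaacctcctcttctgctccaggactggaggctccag
Windows were found for 7 of the 8 genes, 8 windows in all since Cldn7 has 2, and 5 motifs were searched on both strands. The exact Myc and Max motif CACGTG was in 0 of the 8 claudin windows and in 7.15% of all 32851 windows of the table. Related forms that the paper describes as tolerated, such as CANNTG, were not searched. TATAAA stood 35 bases before the start of Cldn2 and in no other claudin window, against 13.6% of all windows. CCAAT was found in the Cldn5 window alone, at 118 and 88 bases before the start on the opposite strand (printed as ATTGG), against 37.4% of all windows. GGGCGG was in 6 of 8 claudin windows and 35.7% of all, and GATAA in 0 of 8 and 25.4% of all. These are matches of letters in a window and say nothing about binding.

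The claudins moved in opposite directions in the tumors. Against control lung, in a limma fit over all 6913 probe sets tested, Cldn2, Cldn3, Cldn7 and Cldn8 were higher in tumors, Cldn5 was lower, and Cldn4 did not pass an adjusted p of 0.05. In that comparison 23.6% of the probe sets were called higher and 21.0% lower, so that being called is common on these arrays and the size of the change says more than the count. The log2 fold changes had a median of 0.84 over the 6 claudins and of 0.04 over all probe sets, where Cldn2 and Cldn8 were tested only through their tumor signals. The plot of signals by array shows that the tumors lie on 1 side of every control lung for Cldn2, Cldn3, Cldn5 and Cldn7.

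**Figure D1:**
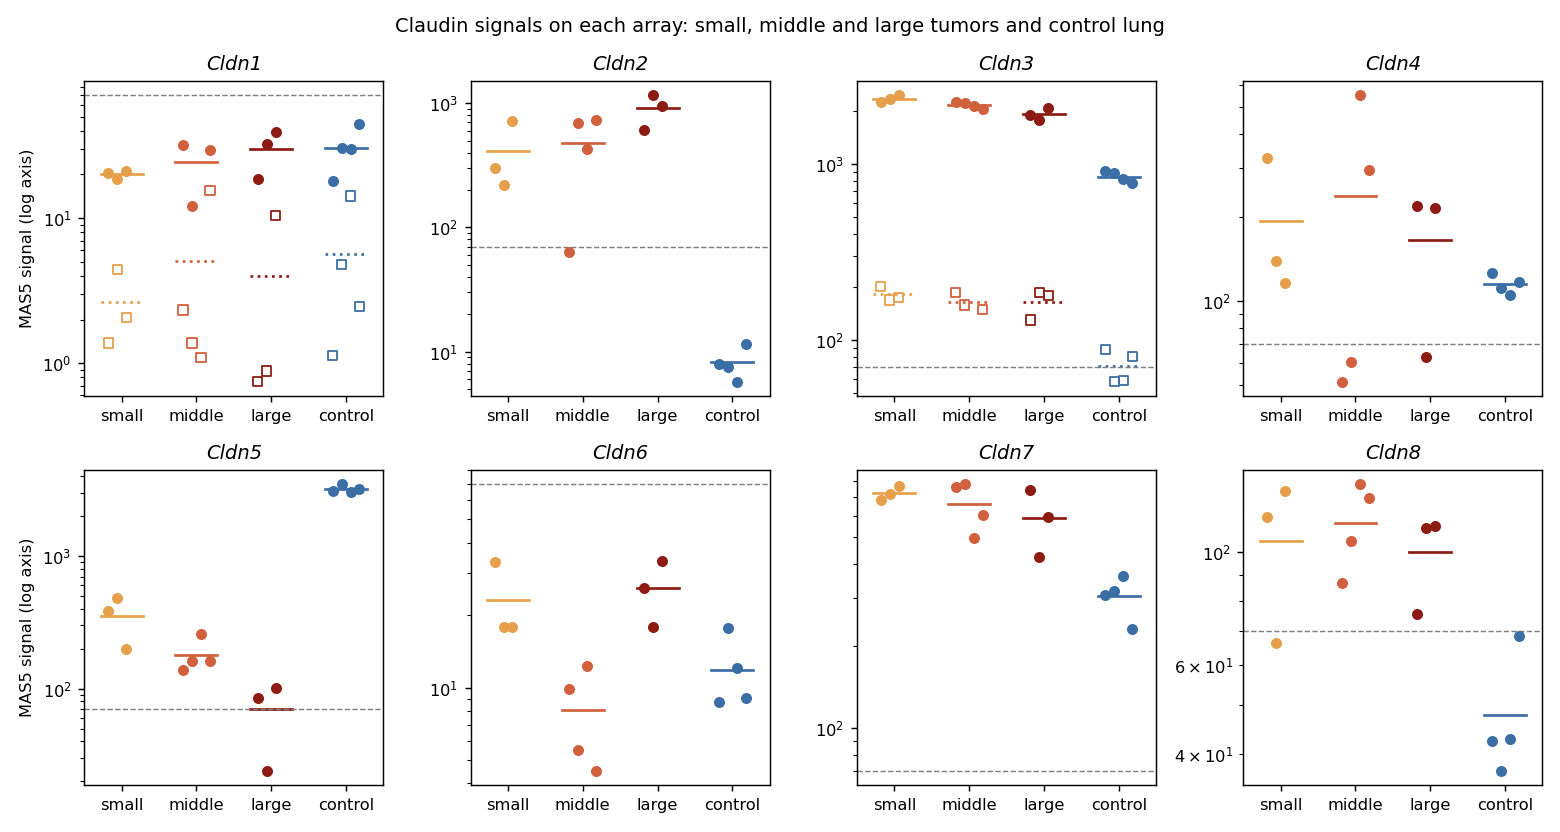
MAS5 signal (log axis, scale differs between panels) of each claudin on every array in small, middle and large tumors and control lung. Points are arrays, bars are group means, open squares and dotted bars are the second probe set of Cldn1 and Cldn3, and the dashed line marks 70. Cldn5 lies between 24.1 and 480.3 in tumors, against 3046 to 3489 in control lung, and Cldn2 between 63.1 and 1155 in tumors, against 5.71 to 11.6 in control lung.

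Cldn5, the claudin that seals the endothelium of vessels including the blood-brain barrier, was the only member that fell. Its signals were 383, 480.3 and 197 in small tumors, 139, 161, 260.1 and 162 in middle tumors and 84.3, 24.1 and 102 in large tumors, against 3115, 3489, 3046 and 3192 in control lung. No tumor came near a control lung, and each large tumor was below every middle and every small tumor. The mean was 199 ± 140.1 in tumors and 3211 ± 195 in control lung (SD, n = 10 and 4), 16.1-fold lower in tumors. On the log2 scale of signals raised to at least 70, the fall was -4.24 (SE 0.21, limma adjusted p = 1.67e-09). It was the 6th largest fall of the 6913 probe sets on that scale. The floor limits the fall of probe sets with lower control signals, so this rank depends on it.

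By size, Cldn5 averaged 354 ± 144 in small tumors (n = 3), 181 ± 54.0 in middle tumors (n = 4) and 69.97 ± 40.7 in large tumors (SD, n = 3). These means are 9.08-fold, 17.8-fold and 45.9-fold lower than in control lung, with log2 fold changes of -3.28, -4.19 and -5.25 (SE 0.27, 0.25 and 0.27; limma adjusted p = 7.55e-07, 2.03e-08 and 7.92e-09). In large tumors no probe set tested fell further on the floored scale. Here large tumor 2, at 24.1, was below the limit of 70 and entered the fit at 70.

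Between tumor sizes, Cldn5 was the only claudin called. It was lower in large than in small tumors with a log2 difference of -1.97 (SE 0.29, 95% interval -2.60 to -1.35, limma adjusted p = 0.0489), one of only 2 probe sets called of 6913 (0.0289%). The other, 103012_at, has no symbol in the annotation. The call was lost in 15 of 27 alternatives while the direction stayed in all 27, with an adjusted p of 0.00239 to 0.379. Leaving out 1 array lost the Cldn5 call for small tumor 1 (adjusted p = 0.14), small tumor 2 (0.203), large tumor 2 (0.282), large tumor 3 (0.0708) and control lungs 1 to 4 (0.116, 0.102, 0.0991 and 0.0597), all by limma. Large against middle tumors gave -1.06 (SE 0.27, limma adjusted p = 0.279) and middle against small tumors -0.92 (SE 0.27, limma adjusted p = 0.664), with 0% of probe sets called in either, while 677 and 449 probe sets, Cldn5 the only claudin among them, had an unadjusted p under 0.05. The order was thus large, middle, small tumors and control lung from low to high, where the neighbouring sizes did not differ past the threshold.

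The endothelial markers fell beside Cldn5. Of the 24 tested, 22 were lower and none higher in tumors, and their log2 values had a median of -2.71. The furthest were Thbd, the thrombin receptor of the vessel surface (-4.28), Ramp2, a partner of the adrenomedullin receptor (-4.22), the adhesion molecule Icam2 (-3.95) and Tek, the angiopoietin receptor (-3.83). The other 2 did not pass, Pecam1 at 0.54 (limma adjusted p = 0.0636) and Ptprm at -0.10 (limma adjusted p = 0.653), both named after their values were seen. The summed signal of the 21 markers with a value on every array ranged from 3833 to 5052 in small, 3237 to 4763 in middle and 3297 to 3786 in large tumors, against 25925 to 32255 in control lung. All 5 alveolar type I markers tested were lower as well, with a median of -2.47. The part of either shift in the fall of Cldn5 was not tested.

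Between large and small tumors no member of the endothelial list was called. Its median log2 difference was -0.21 with 20 of 24 below 0. The lowest member was Vwf at -0.95, and 0 of 24 were called, where Cldn5 had -1.97. The floor of 70 limits these differences for markers with low tumor signals. As mean signals, Thbd had 97.8 in small and 28.1 in large tumors and Tek 88.2 and 42.2, while Pecam1 had 155 and 158. The mean summed signal was 3583 in large and 4330 in small tumors, while the mean Cldn5 signal was 5.05-fold lower in large tumors. Alveolar type I markers, which mark the flat gas-exchange epithelium, had a median log2 difference of -0.69 over 5 genes, also with 0 called. All 5 were below 0, and the mean signal of Pdpn was 96.7 in small and 42.9 in large tumors. Fibroblast markers shifted further, with a median of -0.74 and 9 of 12 below 0, and their lowest member Inmt, at -2.32, was below Cldn5, again with 0 called. Club cell markers had a median of -0.42 over 5 genes, and the medians of the other lists lay between -0.16 and 0.30. The difference between Cldn5 and these lists was not tested.

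**Figure D2:**
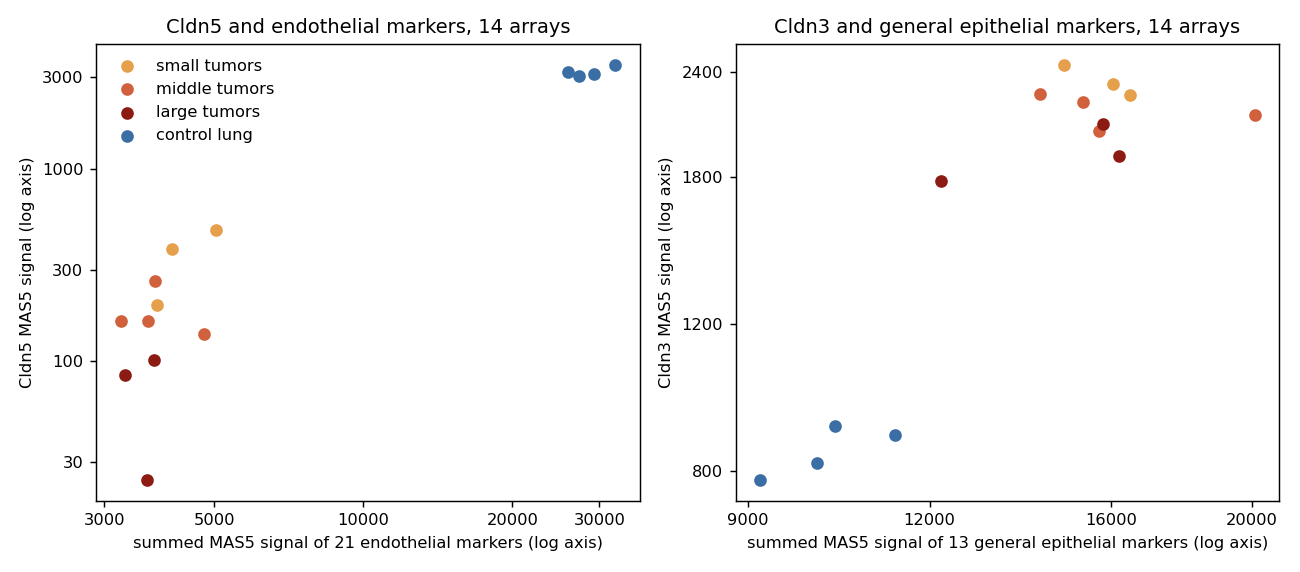
Left, Cldn5 signal against the summed signal of 21 endothelial markers; right, Cldn3 signal against the summed signal of 13 general epithelial markers, 1 point per array, all axes logarithmic. The 10 tumors lie apart from the 4 control lungs in both, low on both axes for Cldn5 and high on both for Cldn3.

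Cldn2, which forms channels for cations and water in leaky epithelia such as the renal proximal tubule, was at the bottom of the scale in control lung and present in the tumors. Its signals were 301, 219 and 723 in small tumors, 63.1, 688, 431 and 736 in middle tumors and 612, 1155 and 953 in large tumors, against 8.03, 7.48, 5.71 and 11.6 in control lung. Middle tumor 1 was the only tumor below 70, and it was still above every control lung. The tumor mean was 588 ± 337 (SD, n = 10), at least 8.40-fold above the limit of 70 that stands in for control lung, where all 4 values lie below it. The rise had a limma adjusted p of 0.000412. Cldn2 entered the test through the tumors alone, and all control values stand at 70 with no spread. This p is therefore no separate support for the rise. The fitted size, 2.78 on the log2 scale (SE 0.50), is set by the floor and was 5.91 with no floor.

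By size, Cldn2 averaged 414 ± 270.4 in small, 479.7 ± 308 in middle and 907 ± 274 in large tumors (SD, n = 3, 4 and 3), at least 5.92-fold, 6.85-fold and 13.0-fold above the limit. Against control lung the fitted log2 values were 2.37, 2.33 and 3.65, likewise set by the floor. The adjusted p values (limma, 0.00988, 0.00809 and 0.000488) were under the threshold but carry the same limit. The call in small tumors was lost without small tumor 3 (1.88, limma adjusted p = 0.0621). Large tumors were above middle tumors by 1.32 (95% interval -0.06 to 2.69, limma adjusted p = 0.534) and above small tumors by 1.27 (-0.20 to 2.74, limma adjusted p = 0.659), neither past the threshold.

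Cldn3, a sealing claudin of many epithelia and of alveolar cells, was the most even of the family. Its main probe set had 2253, 2322 and 2449 in small tumors, 2259, 2211, 2132 and 2040.1 in middle tumors and 1906, 1779.5 and 2082 in large tumors, against 905, 884, 818 and 781 in control lung. Every tumor was above every control lung by a wide margin. The mean was 2143 ± 199.7 in tumors and 847 ± 57.6 in control lung (SD, n = 10 and 4), 2.53-fold higher, with a log2 fold change of 1.33 (SE 0.09, limma adjusted p = 2.08e-08).

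The second probe set of Cldn3, 162315_f_at, gave the same direction at a lower signal. It ranged from 129 to 202 in 9 tumors with a value, against 57.7 to 88.5 in control lung, and rose by 1.14 on the log2 scale (SE 0.13, adjusted p = 0.000129 in a limma fit over all probe sets). The suffix f marks probe sets whose probes can match related sequences. By size the main probe set was higher by 1.47 in small, 1.35 in middle and 1.18 in large tumors (limma adjusted p = 2.33e-07, 2.05e-07 and 1.56e-06). Each large tumor was below each small tumor, yet the difference of -0.29 (95% interval -0.54 to -0.04) had a limma adjusted p of 0.54.

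Cldn4, another sealing claudin, lies on chromosome 5 with 39279 bases between its end at 134946934 and the start of Cldn3 at 134986214 (GRCm38.p6), but did not share its pattern. Its signals were 327, 139.7 and 116 in small tumors, 51.1, 60.5, 549.5 and 295 in middle tumors and 219, 62.7 and 216 in large tumors, against 126, 112, 105 and 117 in control lung. The control lungs were narrow and the tumors were spread on both sides, 6 above all control lungs, 3 below all and 1 among them. The log2 fold change was 0.51 (SE 0.51, 95% interval -0.57 to 1.59, limma adjusted p = 0.443), an interval that spans both directions. By size it was 0.60, 0.55 and 0.38, none called, and the middle-tumor value became -0.02 without middle tumor 3.

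Cldn7, found along the sides of epithelial cells in lung and gut, rose. Its signals were 685, 721 and 771 in small tumors, 763, 782.5, 495 and 603 in middle tumors and 742, 423 and 593 in large tumors, against 307, 319, 361 and 231 in control lung. All 10 tumors were above all control lungs. The mean was 658 ± 125 in tumors and 304 ± 54.2 in control lung (SD, n = 10 and 4), 2.16-fold higher, with a log2 fold change of 1.10 (SE 0.17, limma adjusted p = 9.92e-05). By size it was 1.27, 1.11 and 0.93 (limma adjusted p = 0.000435, 0.000665 and 0.00363), and its probe set, 99561_f_at, is again of the kind that can match related sequences.

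Cldn8, known as a sealing claudin of the distal nephron, had low signals near the limit. They were 117, 66.3 and 132 in small tumors, 86.8, 105, 136 and 128 in middle tumors and 75.6, 111 and 112 in large tumors, against 42.5, 37.1, 42.9 and 68.2 in control lung. Small tumor 2 was the only tumor not above every control lung. The tumor mean was 107 ± 23.8 (SD, n = 10), at least 1.53-fold above the limit of 70 that stands in for the 4 control lungs (limma adjusted p = 0.0135). As for Cldn2, all control values enter at 70 with no spread and the gene was tested only because of the tumors. This p is therefore no separate support for the rise. The fitted log2 value of 0.57 (SE 0.17) depends on the floor and was 1.16 with none.

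By size, the Cldn8 call rested on few arrays. It was 0.68 in middle tumors (limma adjusted p = 0.0195), against 0.55 in small tumors (0.0637) and 0.49 in large tumors (0.0956), neither called. Without middle tumor 3 or 4 the middle call was lost (limma adjusted p = 0.0563 and 0.0524). Small tumors gained the call without small tumor 2 (0.00975) or middle tumor 1 (0.0492), and large tumors without large tumor 1 (0.0414), all by limma.

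Cldn1 and Cldn6 could not be tested. Cldn1, a sealing claudin needed for the skin barrier, had 12.04 to 39.3 in the 9 tumors with a value on 160415_at, against 18.1 to 44.3 in control lung, and its second probe set 97546_at had 0.744 to 15.6 in tumors and 1.13 to 14.2 in control lung. Cldn6, known from embryonic epithelia, had 33.4, 17.8 and 17.9 in small tumors, 9.90, 5.50, 12.3 and 4.52 in middle tumors and 25.99, 17.9 and 33.7 in large tumors, against 8.72, 17.7, 12.02 and 9.04 in control lung. Its 3 small and 3 large tumors lay above all control lungs, but all of these values are under 70 and have no order here.

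Claudins higher and lower per size were 3 and 1 in small, 4 and 1 in middle and 3 and 1 in large tumors, against control lung, of 6 tested. Cldn2 is in each of the higher counts and Cldn8 in that of middle tumors, both tested only through their tumor signals. In small tumors 19.9% of all probe sets were called higher and 16.7% lower. The shares were 15.8% and 16.4% for middle tumors, and 19.8% and 18.3% for large tumors. Scaling each array to 1 median moved the calls of all probe sets in middle tumors to 1331 higher and 920 lower, against 1089 higher and 1135 lower, and the median of all probe sets to 0.13 against 0.02. The same scaling moved that median to 0.12 against 0.00 in small tumors, and no claudin call against control lung changed with it.

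**Figure D3:**
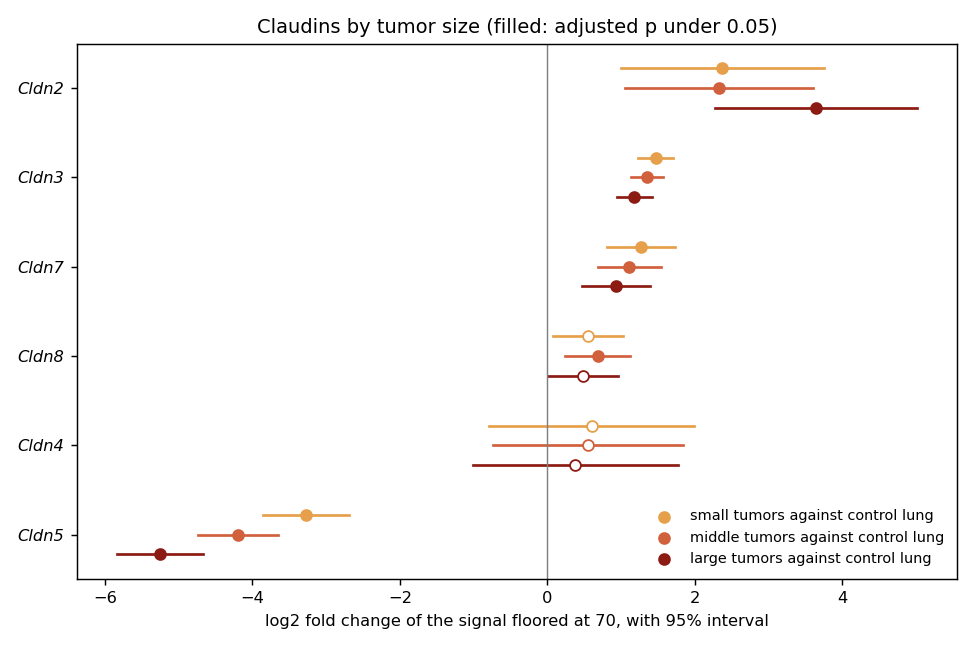
Log2 fold change against control lung (n = 4) of the 6 claudins tested, by tumor size (3 small, 4 middle and 3 large samples), on signals raised to at least 70. Lines are 95% intervals of the limma fit and filled points passed an adjusted p of 0.05; Cldn5 is the only claudin left of 0.

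Cldn5 was set against each of the other 5 claudins tested within every array. The log2 ratio of Cldn5 to Cldn3 averaged -3.65 ± 0.81 in tumors and 1.92 ± 0.11 in control lung (SD, n = 10 and 4), a change of -5.57. The changes were -5.34 for Cldn7 and -4.75 for Cldn4. For Cldn2 and Cldn8 every control value stands at the floor, so that the control ratio carries the spread of Cldn5 alone and the size of the change depends on the floor. It was -6.97 for Cldn2 and -4.82 for Cldn8 with the floor, against -10.25 and -5.56 with none. In each pair all 10 tumors were below all 4 control lungs. The two-sided exact permutation test gave p = 0.001, the smallest that its 1001 splits allow. After Benjamini-Hochberg adjustment over the 5 pairs it was 0.001 as well. All 5 pairs share Cldn5, which alone set all 10 tumors below all 4 control lungs. These p-values therefore repeat its fall and are no separate support for any other claudin. The ratio shows unequal change within an array, and the level of 1 probe set was not set against another.

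Of 14 general epithelial markers, 7 were higher, 1 lower and 6 not called, where 23.6% of all probe sets were higher and 21.0% lower. The largest rises were Krt18, a keratin of simple epithelia (1.70), Spint1, an inhibitor of membrane serine proteases (1.44), the epithelial adhesion molecule Epcam (1.38) and the mucin Muc1 (1.30), while Jup, plakoglobin of desmosomes, was lower (-0.79, limma adjusted p = 0.0198). Over the 14 tested the median was 0.55 on the log2 scale. The summed signal of 13 of them was 12228 to 20080 in tumors, against 9179 to 11359 in control lung, and its part in the rise of the claudins was not tested.

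The tight junction partners, the proteins that anchor claudins to the cytoskeleton or share their strands, changed in both directions. Of 18 tested, 2 were higher, 5 lower and 11 not called, with a median of 0.00. The 5 lower are near the share of 21.0% over all probe sets, and the 2 higher are below the share of 23.6%, so neither count is read as a result about the list. The scaffold Mpdz (-1.32, limma adjusted p = 6.73e-08), Amotl2, an angiomotin (-1.27, limma adjusted p = 1.48e-05) and Tjp1, the ZO-1 plaque protein (-1.20, limma adjusted p = 1.57e-06), were lower in tumors. Ybx3, which binds ZO-1 (0.72, limma adjusted p = 0.0242), and the actin regulator Vasp (0.61, limma adjusted p = 0.00368) were higher. Occludin (Ocln), named after its value was seen, had -0.41 (limma adjusted p = 0.115). Of other claudins 1, Cldn11, had a probe set, which did not pass the filter.

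**Figure D4:**
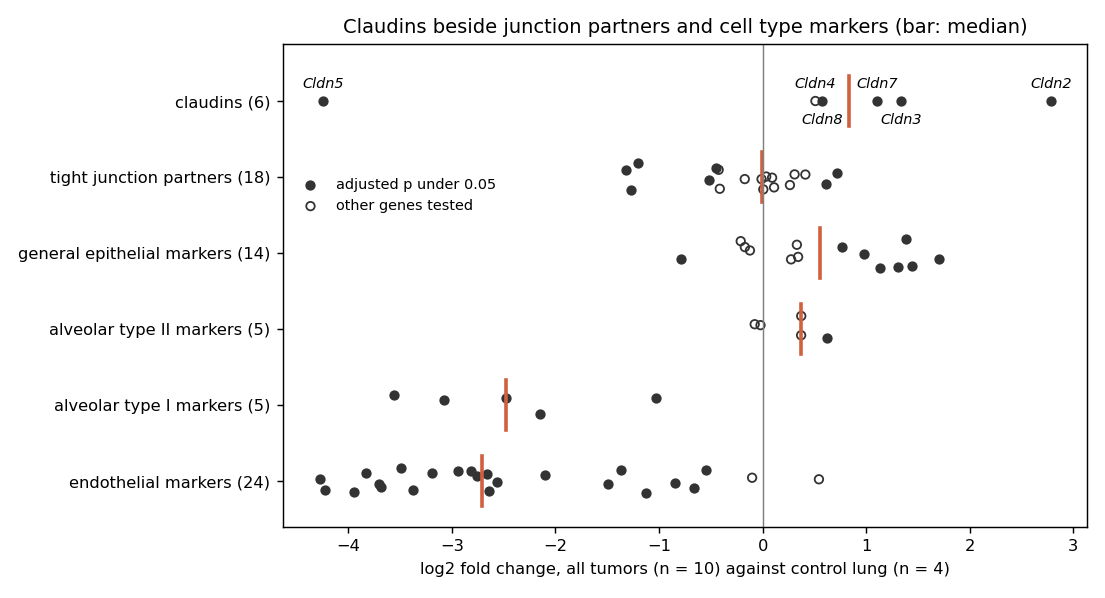
Log2 fold change in all tumors (n = 10) against control lung (n = 4) of the claudins, their junction partners and cell type markers, with the number of genes tested. Filled points passed an adjusted p of 0.05 and bars are medians, all on signals raised to at least 70. The medians are 0.84 for claudins, 0.00 for junction partners, 0.55 for general epithelial and -2.71 for endothelial markers. The claudin median includes Cldn2 and Cldn8, which were tested only through their tumor signals and whose values depend on the floor.

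The genes most like each claudin over the 14 arrays were taken by Pearson correlation of log2 signals raised to at least 70. This is a description, since the arrays fall into tumors and control lung and share that gap. For Cldn2 and Cldn8 every control value stands at the floor, so their coefficients depend on it. Nearest to Cldn5 were Rasip1, a Ras-interacting protein of vessel formation (r = 0.987), the proteoglycan Spock2 (0.975) and Car4, a carbonic anhydrase of lung capillaries (0.974). Nearest to Cldn3 were Coasy of coenzyme A synthesis (0.968), Spint1 (0.966) and the glutathione transferase Mgst2 (0.962). Nearest to Cldn2 were Rangrf (0.945), the chaperonin subunit Cct5 (0.943) and the ribosomal protein Rpl22 (0.942). For Cldn7 they were Gstt1 (0.947), Pdk3 (0.945) and Psma3 (0.941), and for Cldn8 the coefficients were lower, with Psmd8 (0.851), Thoc3 (0.842) and Gpn3 (0.841).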

How the data were processed

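The deposited values are MAS5 signals, a linear intensity per probe set that the authors scaled to the same target on every Affymetrix U74v2 array. Signals below 1e-06, found on 1 array (middle tumor 3), were treated as missing. Of 12488 rows, 66 control rows were left out. Signals were raised to at least 70, the methods' limit for an expressed gene, and put on the log2 scale. Probe sets reaching 70 on at least 3 arrays were kept, with the highest mean per symbol (6913 tested, 6127 with a symbol). Second probe sets come from a fit over all 12422. limma 3.58.1 (R 4.3.3) fitted 4 groups with a trend, and 7 comparisons were adjusted by Benjamini-Hochberg over all probe sets tested. Per the methods each array is 1 animal or pool of its own. The number of arrays limits the precision.

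The members, lists and comparisons were chosen with earlier results of these data known. Named genes are all members, Myc, up to 4 called genes per list with the largest change, those called against their list, and the 3 genes most alike each called member. Alternatives were floors, scalings, filters, probe set choice, fit settings, a replicate block, the methods' unpaired test and leaving out each array. Gene names came from the platform annotation and promoters from RefSeq.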

Additional observations from a re-analysis of the deposited data

Results flagged for a closer look

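Cldn5 differed between tumor sizes under the same contrast with control lung: large minus small tumors was -1.97 on the log2 scale (limma adjusted p = 0.0489), with all 3 large tumors below all 3 small pools. Control lung cancels in this difference but enters the shared spread, and without 1 control lung the limma adjusted p was 0.0597 to 0.116. Small samples are pools while large ones are single tumors, so that pooling and size cannot be told apart. No claudin sample in the 13 groups of 4 arrays that could be examined stood apart from the rest of its group by Dixon's limit, which chance passes in about 1 of 20 groups. This does not extend to Cldn1, where middle tumor 4 had 15.6 on 97546_at and the other middle tumors 1.09 to 2.33, all under 70.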

How the results depend on the processing

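The calls of all tumors against control lung stayed the same for all 6 claudins in 26 of 26 alternatives. The ranges were 1.28 to 1.44 for Cldn3, 0.98 to 1.21 for Cldn7 and -4.41 to -4.11 for Cldn5. For Cldn2 they were 2.62 to 5.91 and for Cldn8 0.51 to 1.16, both dependent on the floor. Cldn2 and Cldn8 were tested only through their tumor signals, so their unchanged calls are no separate support. The 5 log2 ratios, which share the fall of Cldn5, kept direction and call in 19 of 19 alternatives each. The number of claudins called between large and small tumors, 1, was 0 with no floor, with values of 0 kept as deposited, with no filter on low signals, with all probe sets that pass the filter, with only the groups compared, with the replicate block and with the methods' unpaired test, and 0 to 1 when single arrays were left out. Leaving out 1 control lung kept the log2 difference of Cldn5 at -1.97 and changed only its adjusted p. The causes of the other losses were not tested. Over all probe sets this comparison called 2, against 37 with array weights, 4 with no filter, 1 with quantile normalization, scaling to 1 median or the methods' unpaired test, and 0 to 10 when single arrays were left out. Large against middle tumors called 0, against 2 with the methods' unpaired test, 1 with no filter and 10 without middle tumor 4. The methods' unpaired test called 1249 in middle tumors, against 2224 by limma, and there Cldn2 did not pass (adjusted p = 0.0971). Cldn8 passed in small and large tumors with a floor of 35 (adjusted p = 0.00758 and 0.00876, limma) and no floor, in small tumors also with quantile normalization (0.0453) and array weights (0.0209), and in large tumors with only the groups compared (0.0367).

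Differences that were not called changed sign. Cldn2 in middle against small tumors, -0.04, was 0.41 with array weights and -0.41 to 0.73 when single arrays were left out. Leaving out single arrays gave, for Cldn4, -0.02 to 0.97 in middle tumors against control lung, -0.52 to 0.32 in large against small, -0.62 to 0.40 in middle against small and -0.59 to 0.40 in large against middle tumors. It gave, for Cldn8, -0.34 to 0.12 in large against small and -0.15 to 0.31 in middle against small tumors, and for Cldn7 -0.38 to 0.03 in large against middle tumors.

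Nothing in the labels says that the replicate numbers of the titles pair the samples. Same-numbered samples of different groups had a mean correlation of deviations of -0.04 (19 pairs, -0.21 to 0.14). Other-numbered samples had 0.02 (54 pairs, -0.39 to 0.56). With so few arrays this cannot show that pairing is absent. With the number as a replicate block, Cldn5 in large against small tumors had -1.97 (limma adjusted p = 0.126), and no claudin call against control lung changed. Signals under 70 limit Cldn1, Cldn6, Cldn8 and the control level of Cldn2 to bounds.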
